A study of Mus musculus with 6 samples.

Results

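The cytosolic ribosomal protein genes were followed in RNA from the cerebrum of 24-month-old mice. Members were chosen by name alone: rows typed as protein coding whose symbol was Rpl or Rps followed by a number, or Rplp0 to Rplp2, without the Rps6 kinase genes. This gave 86 of the 38087 genes of the deposited table, 52 named for the large subunit and 34 for the small subunit. One of them, Rps19bp1, encodes a regulator of the deacetylase Sirt1 and not a subunit of the ribosome, and it stayed in because its name passed.

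The wild-type (WT) group held 3 mice and the Sgo1-/+ group 3 mice haploinsufficient for Sgo1, the gene of shugoshin 1, which protects the cohesion of sister chromatids. All 6 mice carried the strain label C57BL6 and were 24 months old and untreated, each gave 1 library, and the dissected cerebrum held cortex and hippocampus while olfactory bulb, cerebellum and medulla were removed. Males gave WT replicate 1 and Sgo1-/+ replicate 2, and females gave the remaining 4 libraries. Run 258 held all WT libraries and run 259 all Sgo1-/+ libraries, which means that genotype and run cannot be told apart. The lost Sgo1 allele is missing from the whole animal and not from the brain alone.

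A ribosome is built from 4 rRNAs and one copy of most of the ribosomal proteins, so the cell makes the proteins in near-equal numbers. Their mRNAs carry a run of pyrimidines at the very start, the terminal oligopyrimidine motif, through which mTOR signalling controls their translation as a group. Their short, abundant mRNAs have also been copied back into the genome many times, which left a large number of processed pseudogenes that can be almost identical to the parent gene. In the brain, local protein synthesis in neurons depends on ribosomes far from the cell body, and loss of 1 allele of many of these genes causes Diamond-Blackfan anaemia in people.

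The 6 libraries held from 11123917 to 12505561 estimated counts. Sgo1 itself had 0 to 7 estimated counts in WT and 0 to 4 in Sgo1-/+, too few to check the genotype. The library of WT replicate 1 went against its labelled tissue: the summed normalized count of 7 forebrain markers was 6048 there and 42538 to 52061 in the other 5 libraries, 6 cerebellar granule cell markers summed to 16141 against 446 to 1366, and 6 brain stem markers to 3704 against 2.03 to 46.7. Among 5 choroid plexus markers the sum was 20997 in WT replicate 1, 7322 in WT replicate 2, 23452 in Sgo1-/+ replicate 3 and 283 to 1120 in the other 3. The groups did not overlap in the sums of 5 olfactory bulb markers, 1556 to 2573 in WT and 315 to 1182 in Sgo1-/+. Only 1 of these markers, Calb2, was apart on its own (735 to 2346 in WT, 236 to 710 in Sgo1-/+). The others overlapped through a low WT replicate 1, as with Eomes at 83.7 there and 90.4 in Sgo1-/+ replicate 1. Sums of 5 microglia markers did not overlap either, 2949 to 3804 in WT and 4138 to 4459 in Sgo1-/+. Of these markers, 2 were apart on their own. The sums of 5 oligodendrocyte markers (50255 to 133736) and of 5 red blood cell markers (1393 to 17050) overlapped between the groups. The part of these libraries and marker lists in the results was not tested. Several results, but not all, are therefore also given without WT replicate 1. In whole tissue, fewer cells of a type and less RNA per cell cannot be told apart.

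Across the 6 libraries the ribosomal protein genes together took close to 1% of all counts, and this share did not separate the groups. The members summed to 0.927% ± 0.0988 of counts (SD, n = 3) in WT and to 0.893% ± 0.0581 (SD, n = 3) in Sgo1-/+. By library the WT shares were 0.987%, 0.981% and 0.813%, in the order of the replicate numbers that all values here follow, and those of Sgo1-/+ were 0.959%, 0.872% and 0.849%. WT replicate 3 was the lowest of the 6 libraries (95% Wilson interval 0.808 to 0.818%, for counting error only), WT replicate 1 was the highest (0.981 to 0.992%), and every Sgo1-/+ value lay between them. The log2 difference of the shares was -0.050 (exact two-sided permutation test over the 20 groupings, p = 0.8, where the smallest possible p is 0.1), and it was -0.0019 without WT replicate 1. Counts on near-identical copies of the genes elsewhere in the genome, described below, are not in these shares. With the copies counted the shares were 1.13% ± 0.119 in WT and 1.10% ± 0.0765 in Sgo1-/+ (SD, n = 3 each).

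The balance of the subunits differed between the groups by less than the spread within them. The large-subunit genes drew 1.63 ± 0.0517 times the counts of the small-subunit genes in WT and 1.64 ± 0.0460 times in Sgo1-/+ (SD, n = 3 each; exact two-sided permutation test, p = 0.7). The 6 libraries lay between 1.58 in WT replicate 1 and 1.68 in Sgo1-/+ replicate 2, and the direction of this small difference turned without WT replicate 1 (log2 difference -0.012). With the copies counted the ratios were 1.59 ± 0.0437 in WT and 1.61 ± 0.0199 in Sgo1-/+ (SD, n = 3 each).

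Single libraries, in both groups, lay above or below the others over many members at once. WT replicate 3 held the lowest normalized count of 43 of the 83 members that passed the filter on low counts, and its median log2 ratio to the 6-library median of each gene was -0.13. WT replicate 2 and Sgo1-/+ replicate 1 were at 0.09 and 0.08, and between them held the highest value of 29 and 24 members. The medians of the other libraries were 0.03 in WT replicate 1, -0.02 in Sgo1-/+ replicate 2 and -0.04 in Sgo1-/+ replicate 3. Over 1036 other genes with transcripts under 1 kb, from which the members but not their copies were left out, the medians stayed within -0.03 and 0.04. Over the 76 mitochondrial ribosomal protein genes, which serve the separate ribosome of mitochondria, they stayed within -0.04 and 0.07.

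**Figure D1:**
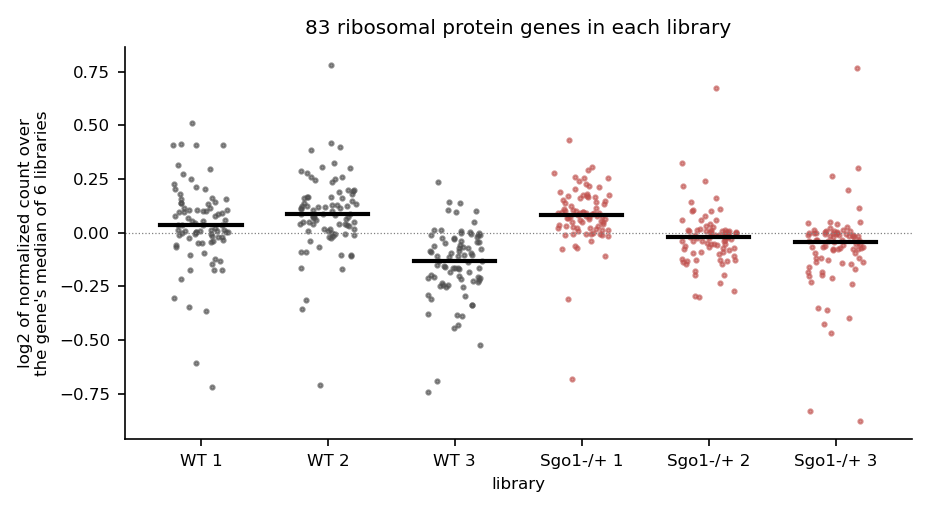
Each point is one of the 83 ribosomal protein genes that passed the filter, placed by library (x axis) and by the log2 of its normalized count over that gene's median of 6 libraries (y axis); bars are the medians over genes. The medians run from -0.13 in WT replicate 3 to 0.09 in WT replicate 2, and the libraries of the groups interleave.

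Before single genes are compared, the levels need the sequences of their copies. A search of each member's coding sequence against the transcripts of the same genome build found 643 genes, mostly processed pseudogenes, that were at least 90% identical over at least 50% of the coding sequence; they belonged to 75 of the 86 members, with up to 51 for a single member. Of these copies 519 had counts in at least 1 library, and 48 had a mean normalized count of 100 or more. Among 85 members with any counts, 51 kept more than 90% of the joint counts of gene and copies, 17 kept under 50% and 7 under 20%. Members without a copy, 11 of the 86, stand at 100% by definition where they had counts. Rps12l1 is itself a member and was not counted as a copy of Rps12. The copies named here were chosen after their values were seen.

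Rps6, the small-subunit protein that S6 kinase phosphorylates, stood at the far end. It had 3.5% of the counts of itself and its copies, with normalized counts of 46.0, 51.7 and 52.2 in WT and 62.1, 83.1 and 50.5 in Sgo1-/+. Its pseudogene Rps6-ps4, on chromosome 2 from 75191034 to 75191854 (mm10, minus strand), had 1818, 1592 and 1370 in WT and 1579, 1555 and 1585 in Sgo1-/+. The coding sequence of 747 bases was the same in gene and copy, with 0 bases that differ, so reads inside it cannot be assigned to one of them by sequence. Bases 7 to 66 of the coding sequence, which lie at chr4:86856800-86856859 in Rps6 and at chr2:75191757-75191816 in Rps6-ps4, both on the minus strand of mm10, are shown for that reason.
Rps6: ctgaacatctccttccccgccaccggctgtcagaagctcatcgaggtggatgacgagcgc
Rps6-ps4: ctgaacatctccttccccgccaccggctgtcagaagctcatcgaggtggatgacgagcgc

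The same stood for other members. Rps13, a small-subunit protein, kept 7.2% of its joint counts, Rpl10, which joins the subunits near the peptidyl transferase centre, 10.7%, Rpl28 13.4%, Rpl13 14.2% and Rps27 16.2%. For Rps27 nearly all of the rest lay on the intronless protein-coding copy Rps27rt on chromosome 9 (114982399 to 114982739), with a mean normalized count of 964. Rpl11 kept 25.4%, and its pseudogene Gm10288 on chromosome 3 had a mean of 926. Rps12 and its namesake Rps12l1 on chromosome 7 have one and the same coding sequence, so that the 234 ± 46.3 and 432 ± 42.2 normalized counts in WT (SD, n = 3) cannot be assigned between them with certainty.

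**Figure D2:**
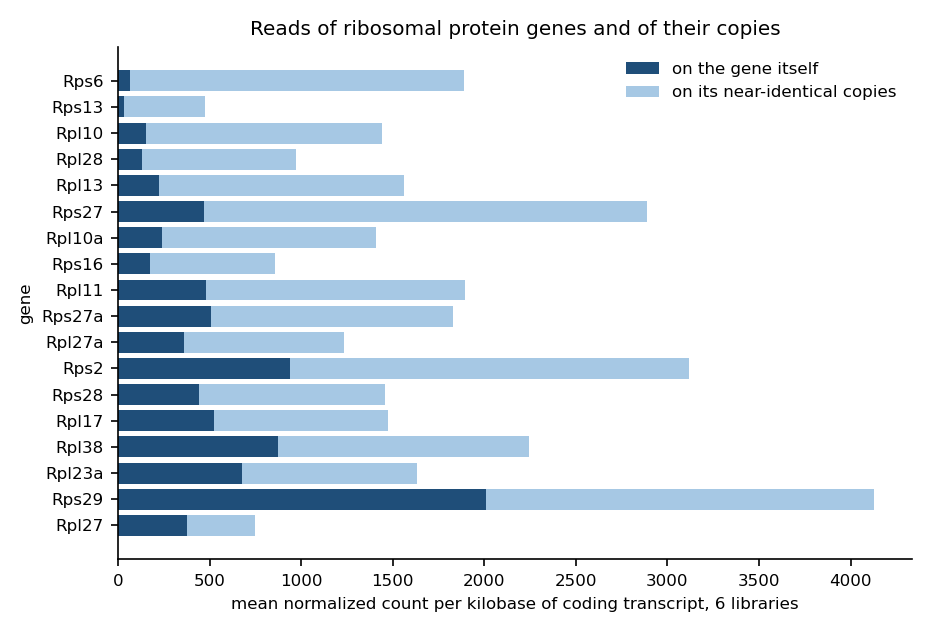
Bars give the mean normalized count over 6 libraries per kilobase of coding transcript (x axis) for the 18 members with the smallest part of their joint counts on the gene itself (y axis), dark for the gene and light for its copies. Rps6, Rps13 and Rpl10 show almost no dark bar, while the joint bars are within the range of the other members.

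Levels between genes were compared per kilobase of the median annotated coding transcript, for the 81 tested members with one in the annotation. These levels depend on the annotated length, which need not be that of the mRNA in these mice. Rpl24, with an annotated length of 4920 bases, came to 277 per kilobase from a mean of 1363 normalized counts. The gene's own counts gave levels from 34.3 per kilobase in Rps13 to 9883 in Rplp1, with an SD over genes of 1.60 on the log2 scale. With the copies added the levels ran from 195, in Rps19bp1, to 10179, in Rplp1, and the SD was 1.09. The highest levels of the genes alone were in Rplp1, an acidic protein of the stalk that recruits elongation factors (9883), Rpl13a, which also takes part in translational silencing after interferon (8755), Rps15 of the small-subunit head (5148), Rpl41, the smallest ribosomal protein (4904), and Rps21 (4670).

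Between genotypes, no ribosomal protein gene passed the test. By edgeR's quasi-likelihood test over 16337 genes, 0 members and 0 genes in all (0%) had an adjusted p under 0.05, and the smallest adjusted p of a member was 0.9999. With an unadjusted p under 0.05, 0 of 83 members were higher in Sgo1-/+, against 0.808% of all genes tested, and 1 of 83, Rps27l, was lower (1.2%, against 1.23% of all genes tested). The values of the groups did not overlap for 0 members with Sgo1-/+ higher, against 3.28% of all genes tested, and for 1 member, again Rps27l, with Sgo1-/+ lower, against 3.57%. DESeq2's Wald test gave 0 members and 3 genes in all with an adjusted p under 0.05. At an unadjusted p under 0.05 it gave 1 member higher (Rps2) and 1 lower (Rps27l), against 0.808% and 1.44% of all genes tested. On the authors' normalized values, limma gave 0 members with an adjusted p under 0.05. It gave 1 lower (Rps27l) with an unadjusted p under 0.05, against 1.46% of all genes tested.

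The fold changes were small. The estimate was above 0 in 36 members and below 0 in 47, its median was -0.0098 (log2) against -0.00069 over all genes tested, and the middle 50% of members lay between -0.06 and 0.07. Of the 83 members, 72 had an estimate within 0.2 of 0 in either direction. The median standard error (SE) of a member was 0.13. Without WT replicate 1 the median was 0.02, with 1 member higher and 0 lower at an unadjusted p under 0.05, against 1.86% and 1.91% of all genes tested. Without WT replicate 3 it was -0.07, with 2 higher and 5 lower, and the shares of all genes tested were then 3.15% and 3.06%.

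Rps27l encodes a paralog of the small-subunit protein Rps27 and is known as a target of p53. Its normalized counts were 166, 130 and 137 in WT and 118, 105 and 92.4 in Sgo1-/+. Every Sgo1-/+ library was below every WT library, and the group means were 144 ± 18.8 and 105 ± 12.9 (SD, n = 3). Its estimated log2 change of -0.45 (SE 0.18) had an unadjusted p of 0.0421 and an adjusted p of 0.9999 in edgeR's quasi-likelihood test, and without WT replicate 1 the estimate was -0.34 with an unadjusted p of 0.113 in that test. The unadjusted p by the same test was also above 0.05 with sex as a covariate (0.0537), with the replicate number as a block (0.0605), and with WT replicate 3 (0.0623), Sgo1-/+ replicate 2 (0.0912) or Sgo1-/+ replicate 3 (0.128) left out. Adding its copy left the estimate at -0.45, since nearly all reads lay on the gene itself.

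The highest and the lowest estimates, those of Rps2 and Rpl29, went with a change in how reads were divided between gene and copies. Rpl29, a large-subunit protein that also binds heparan sulfate, had normalized counts of 899, 1147 and 1032 in WT and of 601, 1080 and 542 in Sgo1-/+. Sgo1-/+ replicates 1 and 3 were low, and Sgo1-/+ replicate 2 lay within the WT range, so the groups overlapped. The log2 fold change was -0.47 (SE 0.27, unadjusted p = 0.124 by edgeR's quasi-likelihood test), and -0.56 without WT replicate 1.

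Its pseudogene Gm13841, on chromosome 5 from 115801559 to 115802194 (minus strand), had 4.0, 6.9 and 6.6 normalized counts in WT and 413, 5.4 and 398 in Sgo1-/+. A second copy, Gm8210 on chromosome 1, had 36.5 to 42.9 in WT and 182, 39.8 and 156 in Sgo1-/+. The same 2 mice in which Rpl29 was low were thus those in which both copies were high. The part of the joint counts on Rpl29 itself was 82.2% (95% Wilson interval 79.8 to 84.4), 79.9% (77.8 to 81.9) and 81.9% (79.7 to 83.9) in WT, and 44.3% (41.6 to 46.9), 82.6% (80.4 to 84.5) and 44.1% (41.3 to 47.0) in Sgo1-/+. The sum of gene and copies was 1093, 1436 and 1261 in WT and 1359, 1308 and 1228 in Sgo1-/+, which overlap, with a log2 fold change of 0.039 (SE 0.13).

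Rpl29 and Gm13841 differ at 3 of 480 coding bases. Counted from the A of the start codon, with the base of Rpl29 first, these are C72A, C300T and T423C. Bases 38 to 97, on the plus strand at chr9:106430308-106430367 in Rpl29 and on the minus strand at chr5:115802063-115802122 in Gm13841 (mm10), are shown with the differing base in capitals.
Rpl29: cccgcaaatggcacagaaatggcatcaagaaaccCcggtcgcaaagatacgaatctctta
Gm13841: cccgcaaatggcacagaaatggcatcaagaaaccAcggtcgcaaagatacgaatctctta

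Rps2, which lines the path where mRNA enters the small subunit, had normalized counts of 559, 741 and 955 in WT and of 1022, 889 and 1572 in Sgo1-/+. Sgo1-/+ replicate 3 was the highest, and Sgo1-/+ replicate 2 lay below WT replicate 3. The log2 fold change was 0.63 (SE 0.27, unadjusted p = 0.0542 by edgeR's quasi-likelihood test). Its pseudogene Rps2-ps13 on chromosome X (52898577 to 52899509) had 1233, 1862 and 1427 in WT and 1807, 1821 and 855 in Sgo1-/+, lowest in the library where Rps2 was highest. In Sgo1-/+ replicate 3 the gene itself held 54.4% of the joint counts (95% Wilson interval 52.5 to 56.2), against 22.1 to 29.7% in the other 5 libraries. Summed over gene and copies, the values were 2321, 3351 and 3210 in WT and 3696, 3552 and 2890 in Sgo1-/+, and the log2 fold change was 0.19 (SE 0.18).

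Rps2 and Rps2-ps13 differ at 7 of 879 coding bases, among them T60A and A84G, numbered as above with the base of Rps2 first. Both lie in bases 25 to 84, at chr17:24720300-24720359 in Rps2 and chrX:52898612-52898671 in Rps2-ps13, on the plus strand of mm10, where the capitals mark them.
Rps2: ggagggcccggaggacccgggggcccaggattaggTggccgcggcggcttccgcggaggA
Rps2-ps13: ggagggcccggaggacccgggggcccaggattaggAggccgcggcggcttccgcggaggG

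Rps18, a protein of the small-subunit head, behaved in the opposite way in the same mouse. Its normalized counts were 965, 1105 and 1066 in WT and 1208, 1066 and 580 in Sgo1-/+, lowest in Sgo1-/+ replicate 3. There the gene held 58.7% of the joint counts (95% Wilson interval 55.6 to 61.8), against 81.5 to 85.2% elsewhere. The copy Gm10260, an intronless gene on chromosome 13 typed as protein coding, had 260 in that library and 105 to 175 in the others. Rps2 and Rps18 both lie on chromosome 17, as does Sgo1, while Rpl29 lies on chromosome 9. Whether the place of a gene plays a part was not tested. Rps18 and Gm10260 differ at 4 of 456 coding bases, and bases 312 to 371 hold A337C and G371A, with the base of Rps18 first (Rps18 at chr17:33952233-33952292, Gm10260 at chr13:97760218-97760277, both minus strand, capitals at the differing bases).
Rps18: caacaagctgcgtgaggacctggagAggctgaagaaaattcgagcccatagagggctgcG
Gm10260: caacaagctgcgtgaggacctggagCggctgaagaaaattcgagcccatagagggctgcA

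Rps7, a small-subunit protein needed for rRNA processing, showed a split that followed no genotype. Of the joint counts, the WT libraries had 86.3% (95% Wilson interval 84.5 to 88.0), 84.9% (83.2 to 86.5) and 99.2% (98.5 to 99.5) on the gene itself, and the Sgo1-/+ libraries 83.9% (82.1 to 85.6), 98.1% (97.3 to 98.7) and 98.8% (98.0 to 99.2). Its copy Gm6472 on chromosome X (152909504 to 152910155) had 191 and 253 normalized counts in WT replicates 1 and 2 and 257 in Sgo1-/+ replicate 1, and 4.8 to 8.6 in the other 3 libraries. The counts of Rps7 itself were 1250 to 1474 in the 6 libraries, with no gap between the mice with and without counts on the copy. Of 69 members whose copies had counts in every library, the part on the gene itself ranged by over 10 percentage points between libraries in 8 and by over 20 in 3, with a median range of 3.19. Rps16, among the members with the widest range, had 300 normalized counts in WT replicate 2, where it held 28.7% of its joint counts, and 138 to 209 in the other 5 libraries, where it held 15.2 to 22.6%.

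**Figure D3:**
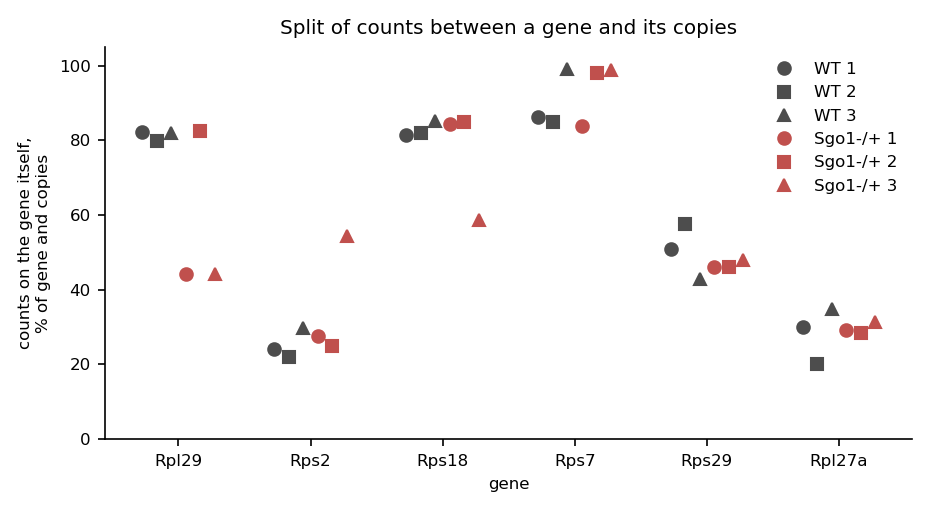
For the 6 members whose split varied most between libraries (x axis), points give the percent of the joint counts of gene and copies that lay on the gene itself (y axis) in each WT (grey) and Sgo1-/+ (red) library. Rpl29 is low at 44.3% and 44.1% in Sgo1-/+ replicates 1 and 3, and in Sgo1-/+ replicate 3 Rps2 is high at 54.4% and Rps18 low at 58.7%.

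Adding the copies to each gene, an alternative chosen after seeing the data, brought the fold changes closer together. The SD of the log2 fold change over the 83 members was 0.16 for the genes alone and 0.11 with copies, and 72 and 80 members lay within 0.2 of 0. The estimate moved by over 0.2 in 6 members and by under 0.05 in 62. Besides Rpl29 and Rps2, Rps6 went from 0.38 to 0.0062, Rps13 from 0.22 to -0.020, Rpl11 from -0.30 to -0.10 and Rpl38 from -0.37 to -0.16. By edgeR's quasi-likelihood test 0 members had an adjusted p under 0.05 with copies added. With an unadjusted p under 0.05 there was 1, Rps27l, against 2.03% of all genes then tested.

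**Figure D4:**
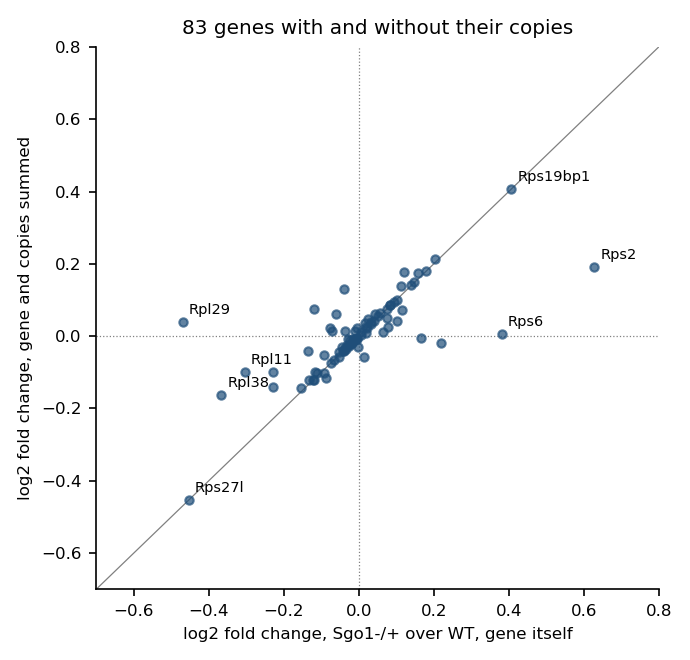
Each point is one of 83 members, with the log2 fold change of Sgo1-/+ over WT from the gene's own counts (x axis) and from gene and copies summed (y axis); the solid line marks equal values. Rpl29, Rps2 and Rps6 lie off the line, at 0.039, 0.19 and 0.0062 on the y axis, whereas Rps27l (-0.45) and Rps19bp1 (0.41) lie on it.

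By role, the structural groups gave no member that passed the test. In the stalk, which holds the GTPases of elongation, Rplp1 had 3879, 4892 and 4980 normalized counts in WT and 5902, 5446 and 4491 in Sgo1-/+. WT replicate 1 was the lowest, and the estimate of 0.20 (SE 0.16) was 0.10 without it. Rpl12, at the base of the stalk, had 863 to 986 in WT and 961 to 1120 in Sgo1-/+ (0.16, SE 0.11), and the scaffold Rplp0 (0.0054, SE 0.11) and Rplp2 (-0.026, SE 0.14) had estimates nearer to 0.

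Rpl5 and Rpl11 form with 5S rRNA the particle that binds Mdm2 when ribosome assembly fails. Rpl11 had 436, 405 and 320 normalized counts in WT and 325, 331 and 283 in Sgo1-/+, where 2 Sgo1-/+ libraries lay above the lowest WT library (-0.30, SE 0.15, unadjusted p = 0.0872 by edgeR's quasi-likelihood test). Its partner Rpl5 had 986 to 1171 in WT and 1045 to 1143 in Sgo1-/+ (0.03, SE 0.11). Around the peptidyl transferase centre, Rpl3 (-0.05, SE 0.15), Rpl4 (0.08, SE 0.13), Rpl8 (-0.01, SE 0.11) and Rpl10 (-0.04, SE 0.21) stayed under 0.1 in size, and 8 genes of the exit tunnel had a median of 0.0026.

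In the small subunit, the proteins at the mRNA entry and decoding centre other than Rps2 were at -0.02 (Rps3, SE 0.11), -0.04 (Rps9, SE 0.16) and -0.09 (Rps23, SE 0.20), and those at the mRNA exit had a median of 0.03. Among 19 genes mutated in Diamond-Blackfan anaemia the median was -0.00085, with 9 estimates above and 10 below 0. Of these genes 0 had an unadjusted p under 0.05, against 2.04% of all genes tested. Rps19, the gene most often mutated in that disease, had 1478, 1623 and 1324 normalized counts in WT and 1626, 1500 and 1296 in Sgo1-/+, with means of 1475 ± 150 and 1474 ± 167 (SD, n = 3).

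The other members with small unadjusted p values gave the following. Rpl38, which in mouse embryos is needed for the translation of Hox mRNAs, had 376, 417 and 293 normalized counts in WT and 255, 339 and 247 in Sgo1-/+, which overlap (-0.37, SE 0.19). Rps19bp1 had 110, 131 and 181 in WT and 156, 211 and 193 in Sgo1-/+, and the WT range overlapped the Sgo1-/+ range through WT replicate 3 (0.41, SE 0.23, and 0.26 without WT replicate 1). For Rpl23a, at the exit of the tunnel, the estimate was -0.23 (SE 0.17), and for Rps15a of the small subunit -0.15 (SE 0.12). Rpl23a kept 41.6% of its joint counts, and its estimate was -0.10 with copies added.

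Several ribosomal proteins have a second gene, and the ratio of the paralog to the main gene is measured within one library. Of 8 pairs, 5 had at least 10 counts of both genes in every library. Rpl22l1, the paralog that can take the place of Rpl22, was at a log2 ratio to it of -0.70 ± 0.20 in WT and -0.80 ± 0.31 in Sgo1-/+ (SD, n = 3). Rpl7l1 was at -2.47 ± 0.12 and -2.56 ± 0.08 of Rpl7, and Rpl36al, a retrocopy that is itself expressed, at -0.71 ± 0.21 and -0.51 ± 0.22 of Rpl36a.

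Rps4y2, an autosomal gene under its deposited symbol, was at -4.46 ± 0.53 in WT and -4.49 ± 0.35 in Sgo1-/+ of the X-linked Rps4x. The ratio of Rps27l to Rps27 was 0.20, -0.74 and -0.37 in WT and -0.81, -0.81 and -0.99 in Sgo1-/+, a difference of -0.57 with groups that did not overlap. WT replicate 1 was the one library in which Rps27l had more counts than Rps27, and the difference was -0.31 without it. This ratio uses the counts on the genes themselves, and most counts of Rps27 lay on its copy Rps27rt. The exact two-sided permutation tests gave p = 0.8, 0.4, 0.4, 0.1 and 1 for Rpl22l1, Rpl7l1, Rpl36al, Rps27l and Rps4y2, and the smallest p adjusted over the 5 pairs was 0.5. With the copies of Rps27 added, the ratio of Rps27l to Rps27 was -2.96 ± 0.38 in WT and -3.46 ± 0.10 in Sgo1-/+ (SD, n = 3; exact permutation p = 0.2), and the groups overlapped.

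The remaining 3 pairs had a paralog without usable counts. Rpl3l, a paralog of striated muscle, had 0 to 4 estimated counts in the 6 libraries, Rpl10l, expressed in the testis, 0 or 1, and Rpl39l, also a testis paralog, was listed at 0 in all 6. At these depths a count of 0 allows up to 3 counts. These 3 were the members that did not pass the filter.

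**Figure D5:**
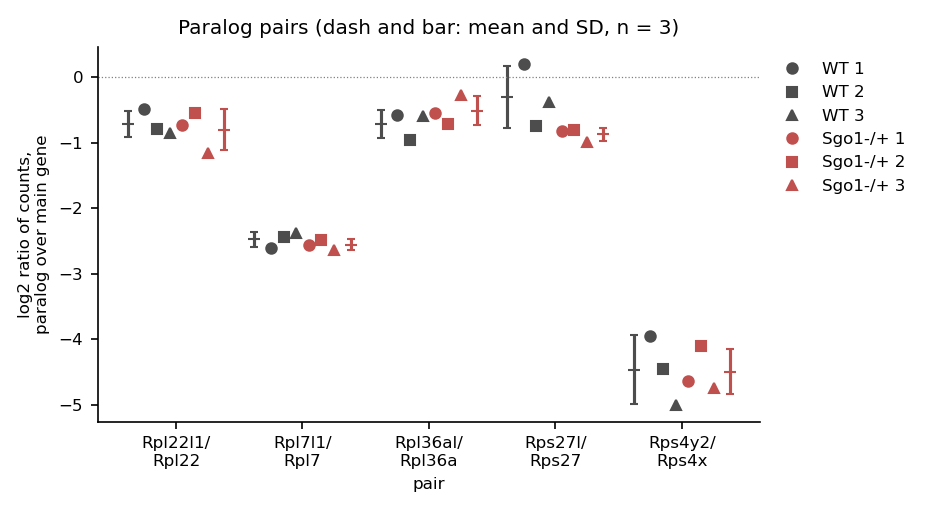
Points give the log2 ratio of the counts of a paralog to those of its main gene (y axis) in each WT (grey) and Sgo1-/+ (red) library for 5 pairs (x axis), with the mean and SD of each group (n = 3) at the sides. The Rps27l to Rps27 ratio is 0.20 in WT replicate 1, and the other 5 libraries lie from -0.37 to -0.99. Counts on copies are not included.

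The start sites of the members were read from the RefSeq promoters (GRCm38.p6), in which 63 of the 86 members had an entry. A run of 8 or more consecutive pyrimidines (C or T, read in the direction of the mRNA), beginning to end within 10 bases before to 15 after the annotated start, was found in 23 of 63 members (36.51%) and in 2986 of 27025 genes (11.05%). Such a run could also lie wholly before the start. This describes letters at annotated starts and not where transcription began in these mice. Examples from Rps27, its paralog Rps27l, Rps6 and Rps19bp1 show the contrast within the family, with the 10 bases before the annotated start in lower case and the 15 after it in capitals. They lie at chr4:86857353-86857377 (Rps6, minus strand), chr3:90213634-90213658 (Rps27, minus), chr9:66946076-66946100 (Rps27l, plus, the first of its annotated starts) and chr15:80264292-80264316 (Rps19bp1, minus). Their longest runs were 10, 9, 7 and 3, and the run of 7 in Rps27l lay wholly before its annotated start.
Rps6: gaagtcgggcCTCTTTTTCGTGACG
Rps27: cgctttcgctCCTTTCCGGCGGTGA
Rps27l: cctccccgccGCCTCTATCCCGGAA
Rps19bp1: cggaagtagcTCGCCGCGTGTGGGC

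In the rest of the translation apparatus, as among all genes tested, 0 genes had an adjusted p under 0.05. Among 36 initiation factors, 11 elongation factors and 15 genes of mTOR signalling, 0 had an unadjusted p under 0.05 in either direction, against 2.04% of all genes tested. Lists of this size are too small to tell 0 from that share. Their median log2 fold changes were 0.011, 0.011 and -0.0016. The smallest p values in these lists were those of Eif3l (0.15, SE 0.12) and Pabpc1 (0.13, SE 0.12), of Eif5a2 (-0.30, SE 0.24) and Eef1a2 (0.15, SE 0.13), and of Larp4 (-0.16, SE 0.10) and Rptor (0.10, SE 0.09). Of 45 ribosome biogenesis factors, 0 were higher and 1 was lower at an unadjusted p under 0.05, against 0.808% and 1.23% of all genes tested.

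That factor was Utp18, which acts in the assembly of the small subunit, with 329, 371 and 371 normalized counts in WT and 267, 299 and 226 in Sgo1-/+. The groups did not overlap, and the estimate was -0.43 (SE 0.14), with an adjusted p of 0.9999 in edgeR's quasi-likelihood test, and -0.49 without WT replicate 1. Bysl, from the same list, was at 0.25 (SE 0.13). Of the 76 mitochondrial ribosomal protein genes, 1 was higher and 0 were lower at an unadjusted p under 0.05, against the same shares of all genes tested. Their median was -0.02, and it was 0.04 without WT replicate 1. The groups did not overlap for 2 of the 76 with Sgo1-/+ higher and for 3 with Sgo1-/+ lower, against 3.28% and 3.57% of all genes tested. The higher one, Mrpl27, had 400, 344 and 353 normalized counts in WT and 452, 459 and 417 in Sgo1-/+ (0.27, SE 0.12), without overlap, and Mrps22 was at -0.26 (SE 0.14).

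The components of the cytosolic ribosome that the naming rule leaves out had values of the same kind. Gnb2l1, which encodes the scaffold Rack1 on the small-subunit head, had 1941 to 2182 normalized counts in WT and 1961 to 2305 in Sgo1-/+ (0.03, SE 0.11). Fau, from which the protein eS30 is cut, was at -0.01 (SE 0.21). Rps27a, a member that is made as a fusion with ubiquitin, had 457, 451 and 265 normalized counts in WT and 358, 313 and 332 in Sgo1-/+. Every Sgo1-/+ value thus lay inside the WT range (-0.23, SE 0.22, and -0.14 with copies added).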

How the data were processed

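RNA-seq (TruSeq V2 libraries, MiSeq, paired reads) was deposited for 6 cerebrum libraries. The authors aligned reads in Strand NGS to mm10 and deposited estimated counts per Ensembl gene, not normalized; per the labels, BWA and edgeR were also used, with no role given. The authors also deposited log2 values (DESeq-normalized, with each gene's median subtracted), used only in an alternative. Further columns hold their fold changes and were not used. The Ensembl release, the counting settings and the use of strand are not given in the sources used here. Among member values, 95.3 to 97.7% per library were not whole, against 47.4 to 48.6% over all genes.

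Columns were assigned to WT 1 to 3 and Sgo1-/+ 1 to 3 by their names and numbers. Estimated counts were rounded, filtered (filterByExpr, 16337 genes kept), scaled by TMM and tested with edgeR 4.0.16 (quasi-likelihood, R 4.3.3, Benjamini-Hochberg, threshold 0.05), after tests on simulated data. Normalized counts are counts over the TMM library size times its mean. SE is the fold change over the square root of F. DESeq2 1.42.0 and limma 3.58.1 were alternatives. Copies were found with BLAST 2.17.0 in GENCODE M21 (at least 90% identity over 50% of the coding sequence). Libraries are separate mice, so p-values measure the spread between mice. Rows of mitochondrially encoded genes were not analysed here.

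Members and gene lists were chosen with earlier results of these data known. Genes were named from structural groups and paralog pairs, and as the 5 highest per kilobase, the 10 smallest p, the 3 widest ranges among members with at least 100 counts in every library, members that failed the filter, and the 2 smallest p of each further list. Rps7, Rps13, Rps18, Rpl28, Rpl13, Rps12l1 and the copies were named after values were seen. Results of some genes are not reported here.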

Additional observations from a re-analysis of the deposited data

How the results depend on the processing

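The count of members with an adjusted p under 0.05 was 0 under every alternative run, edgeR's, DESeq2's and limma's tests and each library left out included. The number with an unadjusted p under 0.05, 1 in the report, was 2 under DESeq2's Wald test (2.25% of all genes tested, against 2.04% in the report), 2 with no filter on low counts (2.16%), 2 with copies added and WT replicate 1 left out (3.77%), and 0 to 7 when each library was left out in turn (7 without WT replicate 3, with 6.21% of all genes, 3 with Sgo1-/+ replicate 2 out, with 1.44%, and 0 with Sgo1-/+ replicate 3 out, with 1.51%). The median log2 fold change of members was -0.073 with total counts as library sizes, where the median of all genes shifted to -0.061, and -0.073 to 0.044 over the libraries left out. With the replicate number as a block it was -0.0059, and 2 members (Rpl29 lower and Rps2 higher) had an unadjusted p under 0.05 (1.71% of all genes tested), while Rps27l did not. Same-numbered libraries had correlations of -0.15, 0.014 and -0.21 of their deviations from the group means, and libraries of unlike number -0.23 to 0.30. Deviations within a group of 3 are tied to each other, so these correlations cannot show or exclude a pairing. With sex as a covariate 1 member, Rps2, had an unadjusted p under 0.05 (2.03% of all genes tested). The log2 difference in the summed share was -0.14 to -0.0019 over the libraries left out. The difference in the large to small subunit ratio (0.0093) turned to -0.018 without the 3 most abundant genes of each subunit and to -0.15 with medians over genes, and was -0.012 to 0.034 over the libraries left out. For the paralog ratios these ranges were -0.23 to 0.076 (Rpl22l1), -0.15 to -0.035 (Rpl7l1), 0.081 to 0.30 (Rpl36al), -0.79 to -0.31 (Rps27l) and -0.30 to 0.23 (Rps4y2).

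Of 28 members with a fold change recomputed, some changed sign, and the cause was not tested. With copies added these were Rpl29 (0.039), Rps16 (0.022), Rpl10 (0.13) and Rps13 (-0.020), and with copies added and WT replicate 1 left out Rpl5 (-0.0082), Rpl10 (0.12), Rpl8 (0.032), Rps3 (0.0025), Rps9 (0.040) and Rps13 (-0.00034). With total counts as library sizes they were Rpl13a (-0.030), Rps15 (-0.011), Rplp0 (-0.057) and Rpl5 (-0.026), and Rps16 was at 0.010 in limma on the authors' values and 0.0086 with the replicate block. Over the libraries left out, 12 had ranges that cross 0: Rpl13a (-0.032 to 0.10), Rps15 (-0.023 to 0.16), Rplp0 (-0.045 to 0.045), Rpl8 (-0.070 to 0.031), Rps9 (-0.16 to 0.040), Rplp2 (-0.12 to 0.085), Rpl3 (-0.15 to 0.068), Rpl10 (-0.13 to 0.094), Rpl5 (-0.023 to 0.10), Rps3 (-0.093 to 0.032), Rps16 (-0.27 to 0.37) and Rps23 (-0.27 to 0.12). Leaving mitochondrially encoded genes out of the denominator could not be run, as no such row was analysed.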
